A study of Mus musculus with 8 samples.

Results

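The genes described here encode enzymes of cholesterol and fatty acid synthesis and the proteins that control them, 29 of the 33696 genes counted in a single-nucleus RNA sequencing (snRNA-seq) study of the mouse retina. They were listed by symbol, and all 29 symbols matched 1 gene each. The list was selected on the difference between the genotypes of this study, with its results known, so the values for that difference are a description. There were 8 libraries from female mice on a C57BL/6J background at postnatal day 120, and each pooled 6 retinae. Control mice were Piezo2f/f (n = 4 libraries), in which both copies of Piezo2 are floxed and no Cre is present. The 4 cKO libraries came from Olig2-cre;Piezo2f/f mice, which carry the same floxed copies and Cre inserted in Olig2, so that recombination follows the Olig2 lineage and 1 Olig2 copy is interrupted in every cell. Nuclei had been sorted with antibodies against NeuN and RBPMS to enrich retinal ganglion cells (RGCs), the neurons whose axons form the optic nerve.

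Cholesterol is built from acetyl-CoA through mevalonate and isoprenoid units to squalene, which is closed to lanosterol and then trimmed to cholesterol. Fatty acid synthesis starts from the same acetyl-CoA, and elongases and desaturases lengthen the chains and set their double bonds. SREBP transcription factors, the products of Srebf1 and Srebf2, switch on both branches when membrane sterol is low. Retinal neurons and Müller glia both make cholesterol and take it up, and Müller glia are known to supply lipid to neurons.

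Counts are of unique molecular identifiers (UMIs), which mark single captured RNA molecules. Libraries held 35697629 to 60088630 UMIs, from which 34941 nuclei were called (15879 control, 19062 cKO), with a median of 3665 to 9481 UMIs per nucleus in a library. Levels are in CPM, a gene's UMIs for each 1000000 UMIs of all nuclei of a class in a library. Nuclei were assigned to a class when UMIs of marker genes of exactly 1 class passed a gate, not counting the horizontal gate. Nuclei were taken as horizontal when only that gate was passed, so nuclei of other classes may pass it too. This gave 19059 RGC, 2748 amacrine, 2242 rod, 1652 Müller glia, 1549 bipolar, 290 cone and 347 horizontal nuclei. The gate for horizontal nuclei is doubtful, since they held RGC markers at a summed 865 CPM, and cones and horizontal cells are given as levels only. Rod-gated nuclei held rod markers at 11609 to 14364 CPM in a library. Empty droplets, which hold free RNA, had them at 10411 to 17707 CPM, so this level alone does not set rod-gated nuclei apart. RGC markers stood at 388 to 737 CPM in rod-gated nuclei and at 3940 to 5032 CPM in empty droplets. Müller glia-gated nuclei held endothelial markers at 1065 to 1848 CPM in a library, nearly all from Flt1, whereas Müller glia markers stood at 5741 to 8020. The part of those transcripts in the glial results was not tested. Piezo2 stood at 17.1, 13.8, 14.7 and 12.3 CPM in RGC nuclei of control libraries 1 to 4 and at 16.1, 12.7, 13.2 and 8.46 CPM in cKO libraries 10 to 13. The groups overlapped, and 3′ counts summed over the gene do not show whether its floxed part was removed. Only 139 of 34802 barcodes of nuclei occurred in more than 1 library.

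Promoters of 5 members that recur below are shown as examples. All of them hold CCAAT, which many other genes share, and Hmgcs1 alone of them also holds TCACNCCAC. Cyp51, Elovl6, Srebf1, Mvd and Acat2, which recur below too, are among the members that hold neither in this window. They are not shown. Each line is the 250 bases before the start of the GENCODE canonical transcript on GRCm39, 5′ to 3′ on the strand of the gene, with capitals for matches to TCACNCCAC, a sterol regulatory element, and to CCAAT, the NF-Y box, which reads ATTGG from the other strand, searched on both strands.
Hmgcs1 (chr13:120151732-120151981, plus strand): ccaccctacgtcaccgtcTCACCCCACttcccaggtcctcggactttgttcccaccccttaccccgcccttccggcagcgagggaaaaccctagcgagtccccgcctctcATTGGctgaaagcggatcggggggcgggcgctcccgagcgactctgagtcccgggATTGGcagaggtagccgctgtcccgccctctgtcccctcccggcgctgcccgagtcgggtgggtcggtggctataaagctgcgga
Idi1 (chr13:8935669-8935918, plus strand): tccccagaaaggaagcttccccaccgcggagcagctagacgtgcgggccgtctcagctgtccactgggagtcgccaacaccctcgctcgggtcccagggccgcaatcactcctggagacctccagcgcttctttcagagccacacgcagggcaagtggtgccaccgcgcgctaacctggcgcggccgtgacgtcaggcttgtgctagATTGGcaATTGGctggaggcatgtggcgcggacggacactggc
Sqle (chr15:59186632-59186881, plus strand): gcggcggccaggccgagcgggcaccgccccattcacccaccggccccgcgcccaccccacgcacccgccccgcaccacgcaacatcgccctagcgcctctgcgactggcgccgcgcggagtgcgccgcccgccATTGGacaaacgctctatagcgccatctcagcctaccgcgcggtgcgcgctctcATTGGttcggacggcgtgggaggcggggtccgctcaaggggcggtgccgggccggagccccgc
Hsd17b7 (chr1:169796814-169797063, minus strand): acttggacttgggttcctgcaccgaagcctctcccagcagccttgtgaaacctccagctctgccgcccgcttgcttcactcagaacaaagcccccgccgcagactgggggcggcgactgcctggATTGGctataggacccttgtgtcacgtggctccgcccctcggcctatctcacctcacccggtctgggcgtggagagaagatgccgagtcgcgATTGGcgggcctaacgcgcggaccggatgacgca
Fdft1 (chr14:63415443-63415692, minus strand): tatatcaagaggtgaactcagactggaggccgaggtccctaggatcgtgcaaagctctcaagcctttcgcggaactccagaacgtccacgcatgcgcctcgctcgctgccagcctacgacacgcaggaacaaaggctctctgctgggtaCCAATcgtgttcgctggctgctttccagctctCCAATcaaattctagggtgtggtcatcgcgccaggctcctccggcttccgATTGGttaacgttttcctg

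The CCAAT letters were present in 19 of the 29 members (65.5%), against 36.6% of 21431 protein-coding genes with the same window. Among sterol enzymes it was present in 9 of 11. TCACNCCAC was found in 2 of 29, Hmgcs1 and Fasn, against 1.12% of protein-coding genes. GGGCGG, the letters of an SP1 box, occurred in 18 of 29 members against 36.3% of genes, and CACGTG, an E-box, in 3 of 29 against 6.26%. A match describes the letters in this window and does not locate a bound site.

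To place the genes within the retina, each class was first compared with RGC nuclei over all 8 libraries. Calls needed a log2 fold change beyond 0.5 in either direction and an adjusted p below 0.05 in edgeR's quasi-likelihood test with the library as a block. P-values set the class difference within a library against how that difference varied between these pooled libraries.

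In bipolar nuclei the pathway stood well below RGC nuclei. Of the 29 members 22 were called lower and 0 higher, with a median log2 difference of -1.08 against -0.06 over all genes tested. Over all genes 25.4% were called lower and 19.8% higher. All 6 fatty acid genes fell, with Fads2, the first desaturase of polyunsaturated fatty acids, the largest at -2.01 (SE 0.17, adjusted p = 1e-11). Fads2 stood at 10.1, 5.4, 8.8 and 10.5 CPM in control and 9.4, 8.8, 9.9 and 17.3 CPM in cKO libraries of bipolar nuclei, against 33.1 to 46.4 CPM in RGC nuclei. No bipolar value reached the RGC range. Scd1, a stearoyl-CoA desaturase, had 10 UMIs in bipolar nuclei of all libraries and fell by 1.84 on the log2 scale. Among sterol enzymes Msmo1 (-1.49), Cyp51 (-1.41) and Lss (-1.33), which remove methyl groups from and form lanosterol, were called lower, as was Srebf2 (-1.33). Acly, which makes cytosolic acetyl-CoA, stood at 45.8 CPM ± 6.0 (SD, n = 8) against 37.2 CPM ± 4.8 in RGC nuclei, a log2 difference of 0.26 that stayed under the fold limit, and Mvk and Srebf1 did not pass the test. The free RNA estimated to be in bipolar nuclei could itself supply 68.6% of the Fads2 level and 36.8% of the Cyp51 level.

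Rod nuclei showed a like direction from fewer molecules. Here 20 members were called lower and 1 higher, while 35.7% of all genes were called lower and 19.7% higher. The median member difference was -0.85, against -0.27 over all genes. Elovl6, which elongates saturated and monounsaturated chains, was 45.1, 31.8, 75.9 and 27.3 CPM in control and 50.6, 38.7, 42.1 and 66.3 CPM in cKO rod nuclei. All of these lay below the lowest RGC library, 145.5 CPM, and the log2 difference was -2.27 (SE 0.14, adjusted p = 5.8e-11). Srebf1 was called higher by 0.70. Rod-gated nuclei had median depths of only 796 to 1328 UMIs, and free RNA was estimated at 8.23% to 17.1% of their UMIs. When nuclei were thinned to 2000 UMIs 11 members were called, and 8 were called when nuclei came from the order-of-magnitude step alone. Only 6 of the 21 calls held under every alternative.

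Cone nuclei were too few to compare, but Elovl6 stood out. It was 328.7, 396.9, 510.6 and 451.8 CPM in control and 395.5, 402.4, 358.0 and 351.7 CPM in cKO libraries, a mean of 399 CPM ± 58.7 (SD, n = 8) from 268 UMIs. Every cone value exceeded the highest RGC value, 190.3 CPM. Empty droplets, which hold free RNA, stood at 159 CPM ± 11.5. No Scd1 UMI was counted among 700430 UMIs of cone nuclei, which allows up to 4.28 CPM, a limit that covers counting error only.

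**Figure D1:**
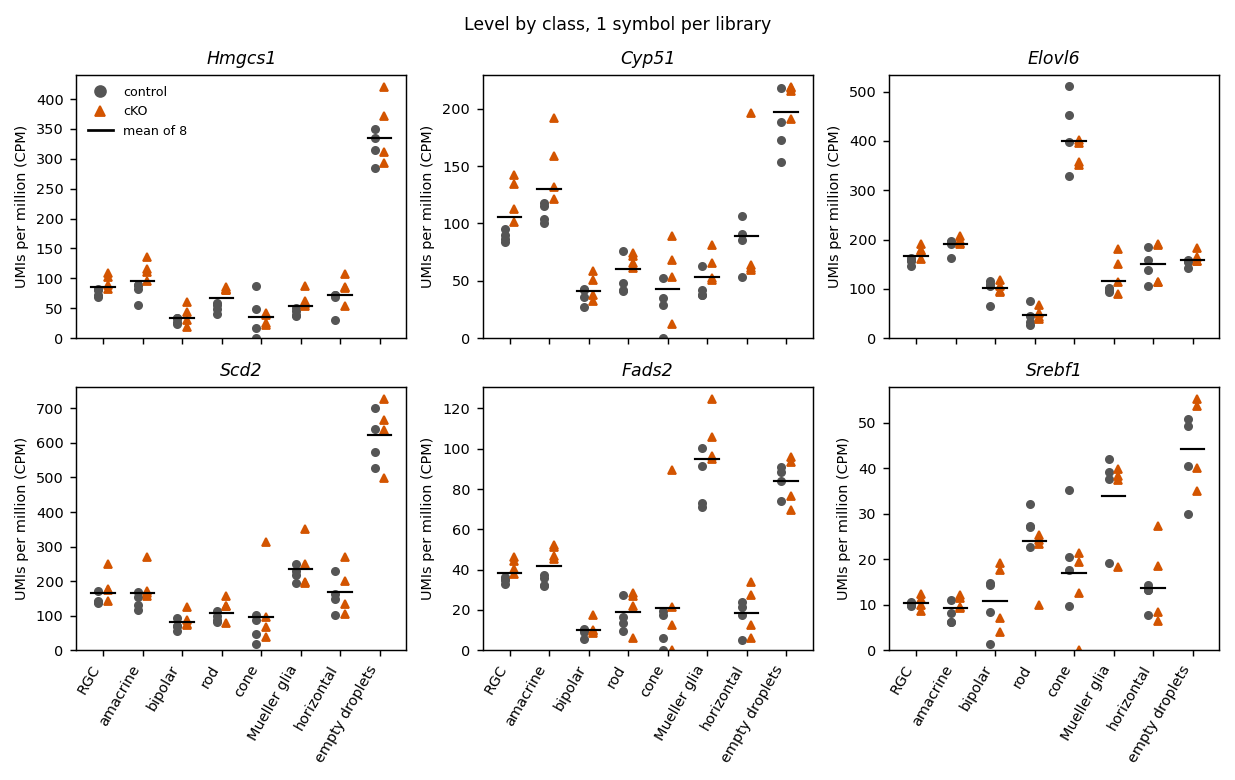
Level in CPM (vertical axes) of 6 members in each gated class and in empty droplets, with 1 circle per control and 1 triangle per cKO library and a bar at the mean of 8 libraries. Elovl6 is highest in cones, and Fads2 and Srebf1 are higher in Müller glia than in RGC nuclei.

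In Müller glia nuclei 13 members were called lower than in RGC nuclei and 2, Fads2 and Srebf1, higher, where 25% of all genes were called lower and 23.4% higher. Those called lower were 6 of 11 sterol enzymes, 3 of 8 mevalonate genes, 2 of 6 fatty acid genes (Scd1 and Elovl6) and 2 of 4 regulators. The median member difference was -0.45, against -0.05 over all genes.

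Fads2 stood at 91.6, 71.1, 73.0 and 100.3 CPM in control and 105.8, 124.6, 96.5 and 95.1 CPM in cKO Müller glia nuclei. All exceeded the RGC values, and the log2 difference was 1.15 (SE 0.09, adjusted p = 1.4e-09). Srebf1, whose product drives fatty acid genes, differed by 1.58 (SE 0.16, adjusted p = 1.2e-07), with 39.0, 19.1, 37.7 and 42.1 CPM in control and 38.3, 37.4, 39.7 and 18.2 CPM in cKO libraries. The lowest of them lay above the highest RGC value of 12.4 CPM. Scd2, a desaturase abundant in brain, had a difference of 0.37 (adjusted p = 0.00061) and Fads1 of 0.31, both under the fold limit. Fasn and Srebf2 did not pass the test.

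Cyp51, a demethylase of lanosterol, was 37.5, 62.5, 37.7 and 42.1 CPM in control and 50.2, 65.4, 80.9 and 52.6 CPM in cKO libraries, and differed by -1.11 (SE 0.09, adjusted p = 8.7e-09). All 8 values were below the RGC minimum of 83.6 CPM. Lss (-1.07), Dhcr7 (-0.65), Msmo1 (-0.64), Fdft1 (-0.60) and Sc5d (-0.56) also fell. Sqle (-0.33) stayed under the fold limit, and Tm7sf2, Ebp, Hsd17b7 and Nsdhl did not pass the test. Tm7sf2 shares its strand with an overlapping gene, Vps51, so that its counts are uncertain, and Acat2, Idi1, Scd1 and Scd2 have close paralogs with which reads may be shared. In the mevalonate branch Hmgcs1, which makes HMG-CoA, fell by 0.80, and Idi1, the isomerase of isoprenoid units, by 0.77. Acat2, which joins acetyl-CoA units, fell by 0.70. Fdps (-0.46), Pmvk (-0.45) and Acly (-0.39) passed the test but stayed under the fold limit, and Mvd and Mvk had negative values that did not pass it. Among regulators Stard4, a sterol carrier, fell by 1.02 and Insig1, which holds SREBP in the endoplasmic reticulum, by 0.75. Elovl6 fell by 0.69, and Scd1 by 1.48 but from 13 UMIs in Müller glia. Free RNA could supply 31.2% of the Cyp51 level but 7.3% of the Fads2 and 11.3% of the Srebf1 level in these nuclei.

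In amacrine nuclei 3 members were called higher and 0 lower than in RGC nuclei (over all genes 14.3% were called higher and 14.3% lower). The median member difference was 0.19, against 0.01 over all genes. All 8 mevalonate genes and 10 of 11 sterol enzymes had positive values, with medians of 0.24 and 0.30. The fatty acid genes had a median of -0.05 and the regulators of -0.07. Acat2 rose by 0.66 (SE 0.08, adjusted p = 8e-08), Nsdhl by 0.53 and Msmo1 by 0.52. Nsdhl was 43.4, 37.1, 43.2 and 39.0 CPM in control and 41.2, 50.6, 49.0 and 47.9 CPM in cKO amacrine nuclei, all above the RGC range, whose highest value was 37.0 CPM. None of these 3 calls held under every alternative.

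**Figure D2:**
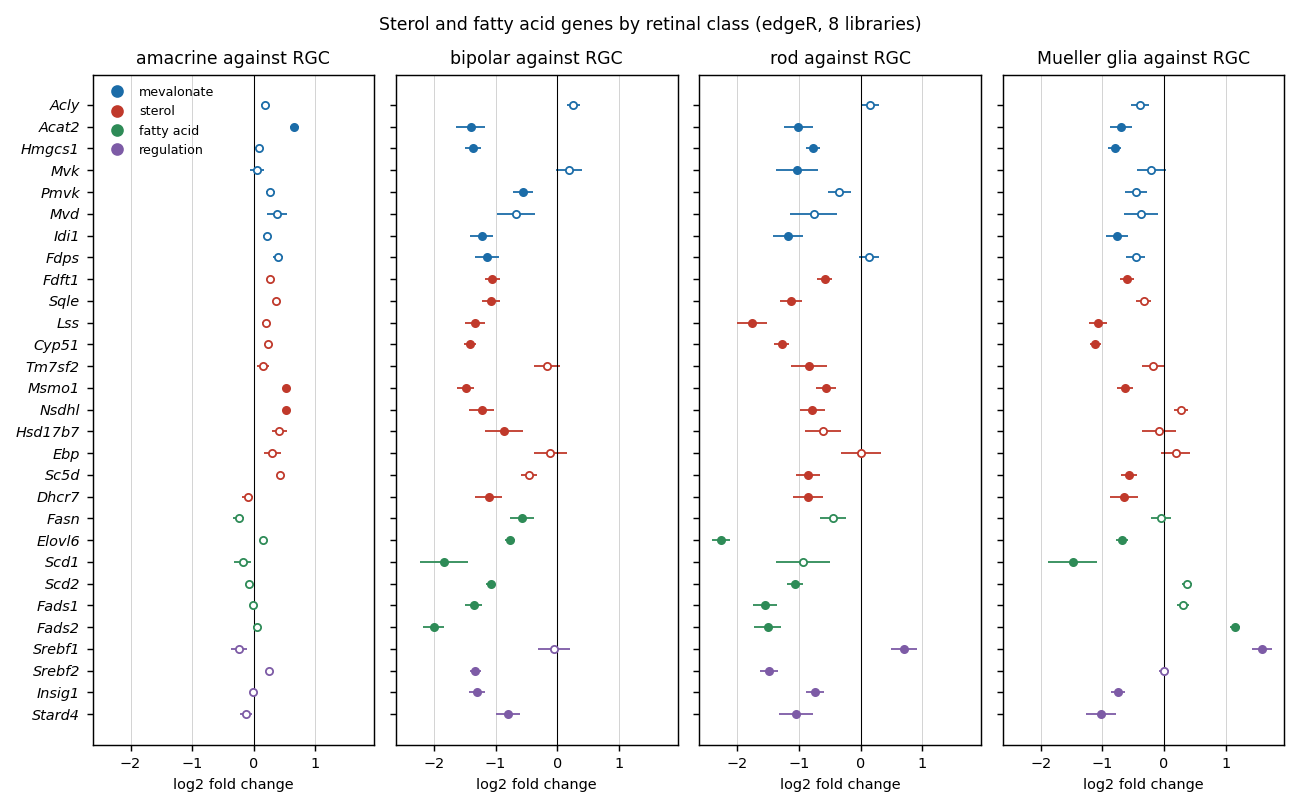
Log2 fold change (horizontal axes) of each member in amacrine, bipolar, rod and Müller glia nuclei against RGC nuclei, with bars of 1 SE from edgeR over 8 libraries and filled symbols for called genes. Bipolar and rod values lie mostly left of 0, and Fads2 and Srebf1 are filled and right of 0 in Müller glia.

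Further genes of the pathway were taken from a list of 38. The list had 8 genes called higher and 12 lower of 32 tested in bipolar, 9 and 12 of 32 in rod, 10 and 8 of 32 in Müller glia and 5 and 4 of 34 in amacrine nuclei. Over all genes, as above, 19.8% were called higher and 25.4% lower in bipolar, 19.7% and 35.7% in rod, 23.4% and 25% in Müller glia and 14.3% each way in amacrine nuclei. The counts called lower in Müller glia and rod and those called either way in amacrine nuclei stood near these shares. Abca1, a sterol exporter, rose in each of them, by 5.54 in Müller glia, 4.83 in bipolar, 4.35 in rod and 3.33 in amacrine nuclei. Apoe, a lipid carrier, rose by 5.64 in Müller glia. Elovl7 fell by 5.14 in bipolar, 3.27 in Müller glia, 3.08 in rod and 1.90 in amacrine nuclei. Elovl2, which elongates very long polyunsaturated chains, rose by 4.58 in rod, 2.12 in bipolar and 1.83 in amacrine nuclei.

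Levels also varied within RGC nuclei. Summed over the 29 members, nuclei gated on Foxp2 stood at 1567 CPM ± 229 (SD, n = 8) against 1350 CPM in all RGC nuclei, and exceeded them in 8 of 8 libraries. Nuclei gated on Spp1 (1117 CPM ± 145) and on Chrm2 or Piezo2 (1126 CPM ± 120) were below in 8 of 8 libraries. The gate on Chrm2 or Piezo2 needed 2 UMIs of the pair together, from either gene or both, and Piezo2 is floxed in all of these mice. Fads2 had a log2 ratio to all RGC nuclei of 0.49 in the Foxp2 and -0.85 in the Spp1 subset. Srebf1 was at 0.01 and 0.15. Subsets overlap all RGC nuclei and were not tested.

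RGC nuclei were next set against empty droplets (barcode ranks 45000 to 90000 by UMIs), which hold free RNA. The droplets held rod markers at a mean of 13137 CPM, RGC markers at 4521 CPM and Müller glia markers at 2362 CPM. In RGC nuclei these stood at 448, 2351 and 152 CPM. The comparison is therefore not with RNA of RGCs alone, and the part of each class in the free RNA was not tested. Members were mostly scarcer in nuclei, with 22 called lower and 1 higher, where 37.8% of all genes were called lower and 39.2% higher. The median difference was -1.15 against 0.04 over all genes. Fdps, which makes farnesyl pyrophosphate, was 156.1, 159.5, 162.9 and 144.0 CPM in control and 151.5, 140.6, 157.8 and 149.2 CPM in cKO droplets, against 17.3 to 28.0 CPM in RGC nuclei. The ranges were far apart, and the log2 difference was -2.67 (SE 0.07, adjusted p = 5.7e-22). Ebp, a sterol isomerase, differed by -2.59, Fasn, the fatty acid synthase, by -2.27 and Insig1 by -1.99. Lss alone was called higher in nuclei (0.51), a call lost in 4 of the alternatives, and Nsdhl (0.29) and Elovl6 (0.22) stayed under the fold limit. Free RNA could supply from 2.6% (Lss) to 23.6% (Fdps) of the level of a member in RGC nuclei.

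**Figure D3:**
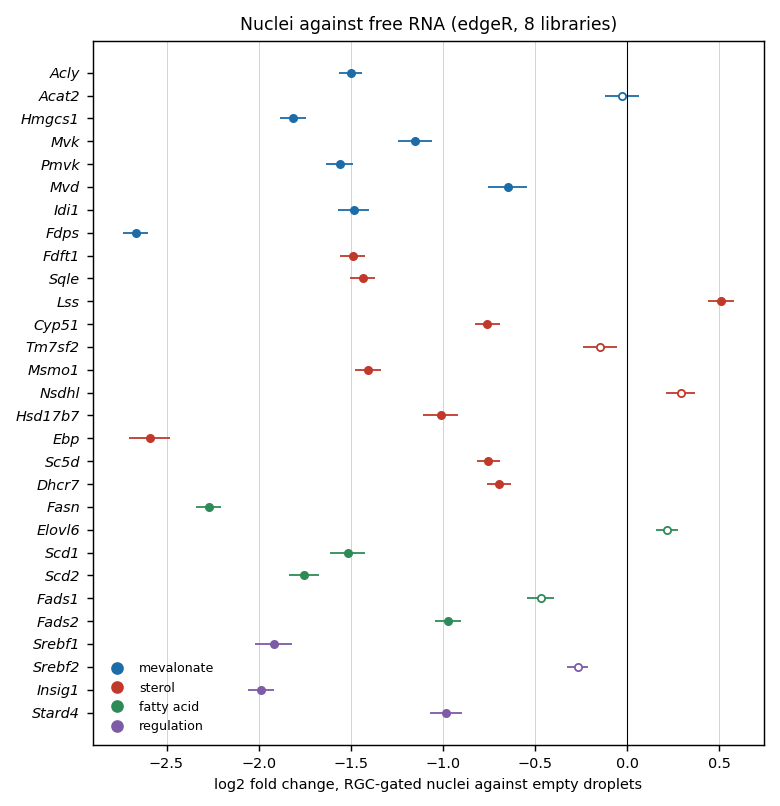
Log2 fold change (horizontal axis) of each member in RGC-gated nuclei against empty droplets, with bars of 1 SE from edgeR over 8 libraries and filled symbols for called genes. Lss, Nsdhl and Elovl6 are the members right of 0.

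To describe the genotype difference on which the genes had been selected, cKO and control libraries were set side by side in each class. In RGC nuclei 28 of 29 members had positive log2 differences, with a median of 0.27 against 0.01 over all genes, and 0 were called with edgeR (0% of all genes). At an unadjusted p under 0.05 stood 18 members among 617 of 17840 genes, and DESeq2 called 2 genes, 1 of them a member. The smallest adjusted p of a member with edgeR was 0.97. The sterol enzymes had a median of 0.28, the mevalonate genes 0.27, the fatty acid genes 0.24 and the regulators 0.17.

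Hsd17b7, a ketosteroid reductase of the late sterol steps, stood at 6.67, 5.74, 5.46 and 6.38 CPM in control and 10.5, 11.8, 8.81 and 10.1 CPM in cKO libraries. Every cKO library lay above every control library, with a log2 difference of 0.70 (SE 0.11). DESeq2 called it (log2 0.70, adjusted p = 0.00596). Members were selected on this difference, so the adjusted p-values of members in this paragraph are descriptions only. Idi1 was 27.2, 23.5, 21.8 and 24.1 CPM in control and 32.2, 38.8, 32.7 and 33.2 CPM in cKO libraries. The groups were again separate (log2 0.44), and with DESeq2 the adjusted p was 0.0141, the difference staying under the fold limit. Mvd, which forms isopentenyl pyrophosphate, was 6.27, 5.62, 5.65 and 7.23 CPM in control and 11.6, 9.06, 8.13 and 8.09 CPM in cKO libraries (log2 0.51). Cyp51 was 89.6, 94.8, 86.4 and 83.6 CPM in control and 112.7, 134.7, 142.1 and 101.4 CPM in cKO libraries (log2 0.40), with cKO libraries 11 and 12 the highest.

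Altogether 10 of 29 members did not overlap between groups in RGC nuclei, all higher in cKO libraries (Hsd17b7, Cyp51, Mvk, Mvd, Idi1, Hmgcs1, Fdft1, Sqle, Fads2 and Nsdhl), where 2.98% of all genes did so in that direction. Fdft1, squalene synthase, had a mean of 55.0 CPM ± 4.9 in control and 69.8 CPM ± 6.1 in cKO libraries (SD, n = 4 each), and Sqle, squalene epoxidase, 36.6 CPM ± 2.6 and 48.8 CPM ± 6.8. Hmgcs1 had 76.3 CPM ± 6.4 and 95.7 CPM ± 12.1, Mvk 8.52 CPM ± 0.93 and 11.5 CPM ± 1.0, and Nsdhl 25.4 CPM ± 1.3 and 32.8 CPM ± 3.6. Among overlapping members were Scd1 (log2 0.44), Insig1 (0.35), Lss (0.31), Msmo1 (0.28), Stard4 (0.28), Fdps (0.28), Fasn (0.27), Dhcr7 (0.26), Scd2 (0.26) and Acat2 (0.25). Their range met that of the separate members, of which Fads2 had the lowest difference, 0.22. Acly (0.18), Sc5d (0.16), Fads1 (0.16), Elovl6 (0.12), Tm7sf2 (0.12), Ebp (0.06), Pmvk (0.06) and Srebf2 (0.05) were nearer 0, and Srebf1 was at -0.02.

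One library contributed much of the spread. Of the 29 members 18 were highest in cKO library 11 in RGC nuclei, and it led for 13 in amacrine and 15 in Müller glia nuclei. Without it the median difference in RGC nuclei was 0.20, Insig1 was 0.13 in place of 0.35 and Scd2 0.11 in place of 0.26, while Hsd17b7 was 0.65. Other libraries moved other members, with Acat2 at 0.11 without cKO library 10 and, without cKO library 12, Ebp at -0.15 and Pmvk at -0.03. Insig1 was 115.2 CPM in cKO library 11 and 49.1 to 79.3 CPM elsewhere. Malat1, a nuclear RNA looked at after its values were seen, was 39444, 61700, 66788 and 53373 CPM in control and 35516, 36833, 60061 and 60986 CPM in cKO RGC nuclei, so that control library 1 and cKO libraries 10 and 11 were the lowest. Its part in the differences was not tested. Free RNA was estimated at 4.79% of UMIs in RGC nuclei of cKO library 11 and at 2.02% to 3.66% in the other 7 libraries, with means of 3.05% ± 0.74 in control and 3.68% ± 0.80 in cKO libraries (SD, n = 4 each). With the empty-droplet profile subtracted from RGC nuclei the median member difference was 0.27, as without subtraction. That subtraction rests on the rough share estimated from rod markers. Summed markers of other cell types overlapped between groups in RGC nuclei, with rod markers at 249 to 648 CPM in control and 357 to 660 CPM in cKO libraries. The part of free RNA and of other cell types in the differences was not tested.

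**Figure D4:**
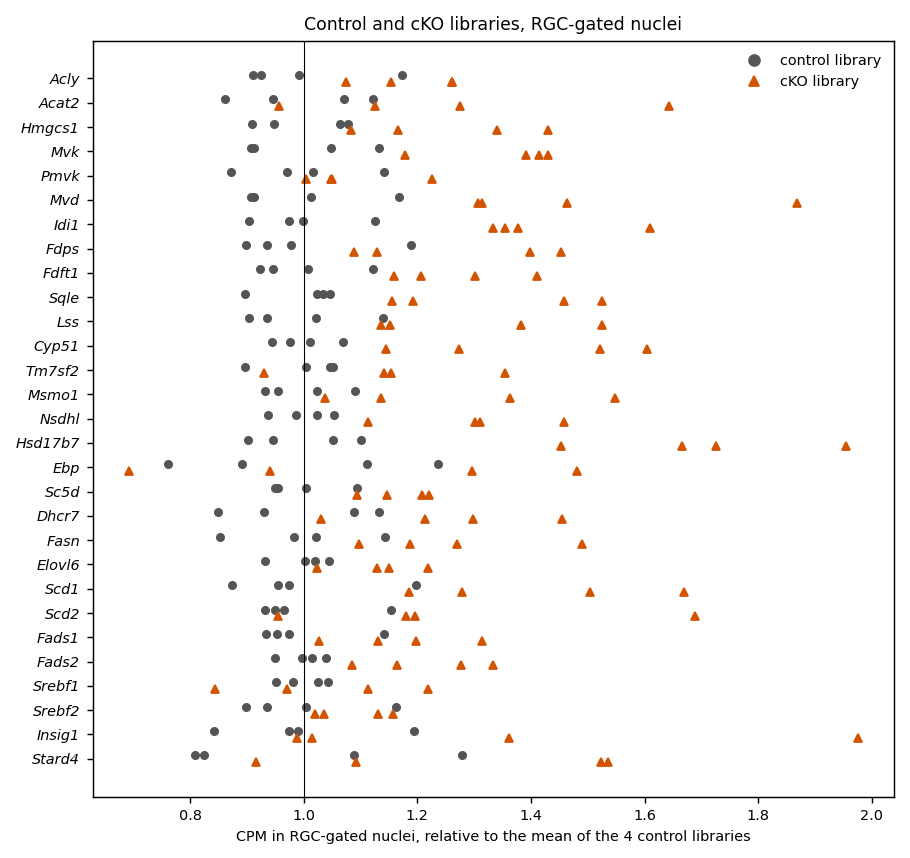
CPM of each member in RGC-gated nuclei relative to the mean of the 4 control libraries (horizontal axis), with circles for control and triangles for cKO libraries. Triangles lie right of all circles for 10 members, Hsd17b7 among them.

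Amacrine nuclei came from the same libraries and are therefore no independent repeat. There 28 of 29 members had positive values (median 0.36, against 0.01 over all genes), and 0 were called with edgeR (0% of all genes). At an unadjusted p under 0.05 stood 13 members among 497 of 13039 genes. DESeq2 called 3 genes, and without control library 4 edgeR called 7 of 13419, in neither case with a member among them. Members that did not overlap numbered 7, all higher in cKO libraries (Cyp51, Msmo1, Idi1, Hmgcs1, Fdft1, Sqle and Fads2), where 2% of genes did so in that direction. Idi1 was 35.4, 25.2, 23.2 and 25.3 CPM in control and 40.9, 48.4, 43.9 and 42.3 CPM in cKO amacrine nuclei. Its log2 difference was 0.66. Without cKO library 11 the median was 0.22.

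Smaller classes gave fewer tested members, and shares of genes not overlapping again count only genes higher in cKO libraries. In Müller glia 20 were tested, with a median of 0.33, 0 called (0% of all genes) and 2 not overlapping, Hmgcs1 and Sc5d, where 1.66% of genes did. In rod nuclei 10 were tested, with a median of 0.26, 0 called (0% of all genes) and Hmgcs1 alone not overlapping, where 1.27% of genes did. Without cKO library 12 the median was 0.43 over 9 members and 214 of 5699 genes were called, and without cKO library 10 in Müller glia 38 of 8999 genes were called, in both cases with 0 members among them. In bipolar nuclei 15 were tested, with a median of 0.04, 0 called (0.0114% of all genes) and 0 not overlapping, where 1.61% of genes did. That median was 0.23 without control library 1, 0.14 without cKO library 10, 0.13 without control library 3, 0.08 without cKO library 11 or 12 and -0.07 over 7 members when thinned. The counts by edgeR at an unadjusted p under 0.05 were 2 members among 535 of 9032 genes in Müller glia, 1 among 332 of 5845 in rod and 0 among 231 of 8735 in bipolar nuclei.

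Empty droplets of cKO and control libraries were compared in the same way. The median member difference was 0.12, and 0 were called with edgeR (0% of all genes, 309 at an unadjusted p under 0.05 with 4 members among them, and 2 genes with DESeq2). Here Hsd17b7, Mvd and Scd1 did not overlap, all higher in cKO droplets, where 0.609% of genes did so in that direction. Hsd17b7 was 17.8, 12.6, 16.6 and 17.7 CPM in control and 20.2, 19.8, 20.1 and 20.01 CPM in cKO droplets. Without cKO library 11 the median in empty droplets was 0.05, and without control library 4 10 of 14697 genes were called.

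**Figure D5:**
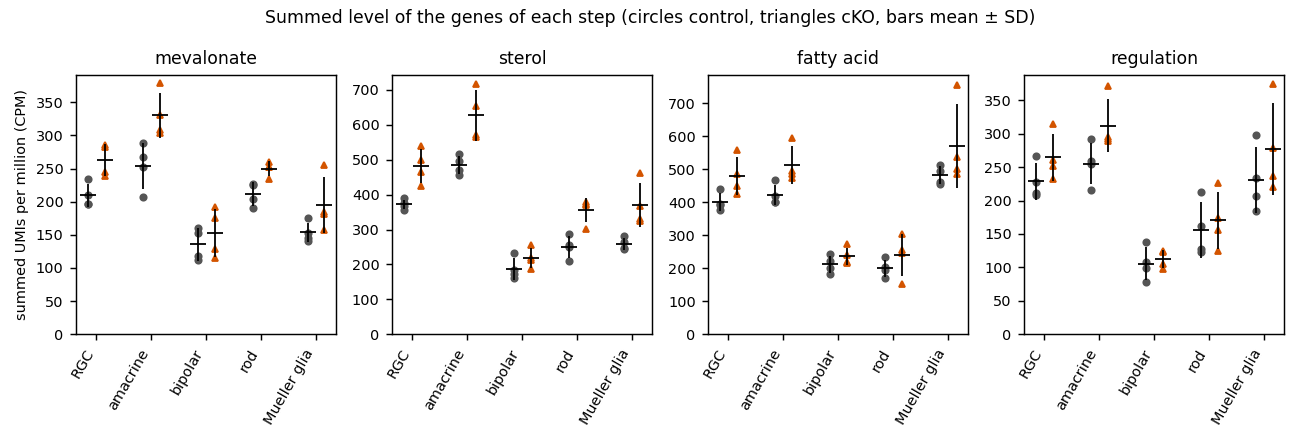
Summed CPM of the genes of each step (vertical axes) by class, with circles for control and triangles for cKO libraries and bars for the mean ± SD of 4 libraries. In RGC nuclei sterol enzymes summed to 356 to 390 CPM in control and 425 to 541 CPM in cKO libraries.

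Summed over the 11 sterol enzymes, RGC nuclei held 372 CPM ± 14.2 in control and 482 CPM ± 49.2 in cKO libraries (SD, n = 4 each), and Müller glia nuclei 259 CPM ± 17.3 and 371 CPM ± 63.0. In both classes, and in amacrine and rod nuclei, the groups were separate. They overlapped in bipolar nuclei (162 to 233 CPM in control and 188 to 257 CPM in cKO libraries), in cone nuclei (158 to 223 and 184 to 291 CPM), in horizontal nuclei (279 to 404 and 277 to 442 CPM) and in empty droplets (802 to 983 and 931 to 1059 CPM). The mevalonate genes were also separate in RGC (197 to 235 CPM in control and 239 to 285 CPM in cKO libraries), amacrine and rod nuclei. They overlapped in the other classes and in empty droplets. The regulators overlapped in RGC nuclei, with 208 to 267 CPM in control and 233 to 315 CPM in cKO libraries, as did the fatty acid genes (376 to 441 and 424 to 559 CPM) and the sum of all 29 members (1136 to 1333 and 1321 to 1700 CPM). That sum was separate in amacrine (1295 to 1564 and 1639 to 1999 CPM) and Müller glia nuclei (1073 to 1204 and 1231 to 1847 CPM). The fatty acid genes were separate in amacrine nuclei (400 to 467 and 473 to 596 CPM).

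Of the pathway list, 35 genes were tested in RGC nuclei, with 24 positive values, a median of 0.07 and 0 called. Of these 35 genes 3 did not overlap between groups, all higher in cKO libraries, where 2.98% of all genes did so in that direction. Acss2 and Elovl5, named after their values were seen, were among them.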

How the data were processed

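Raw UMI counts for all genes and barcodes of 8 libraries were deposited by the authors, who made them, per the labels and methods, with Cell Ranger 7.0.0 on GRCm39, with every barcode listed. Their later steps (CellBender, scVI, PyDESeq2) are not in these counts. Nuclei and classes were rebuilt here, and differences from the study may come from that. Nuclei were barcodes above 10% of the 99th percentile of the top 8000, or with at least 500 UMIs and a profile differing from empty droplets. Quality filters and Scrublet (scanpy 1.11.5) followed, which removed 1376 doublets. A class needed at least 3 UMIs from at least 2 markers. Counts were summed per library and class and tested by quasi-likelihood in edgeR 4.0.16 (R 4.3.3, TMM, filterByExpr, Benjamini-Hochberg adjustment over all genes). DESeq2 1.42.0 was an alternative. Genotype was the only term in genotype fits. On simulated counts for the genotype comparison in RGC nuclei, 87.8% of genes changed by 1 on the log2 scale were recovered. For Müller glia against RGC nuclei 78.8% were. The spread between simulated libraries was set (dispersion 0.03) and not taken from the data. Smaller changes, such as those of members between genotypes in RGC nuclei, were not simulated. Free RNA was estimated from rod markers, or RGC markers for rods and cones. Members and gene lists were chosen with earlier results of these data known. Named genes were every member, up to 5 called list genes with the largest change in each class comparison, markers and Piezo2, and some items this rule names are not reported here. Precision follows from depth, 146787 to 25614961 UMIs for a tested class in a library. The labels gave no batch.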

Additional observations from a re-analysis of the deposited data

Results flagged for a closer look

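In groups of 4 libraries, each member was examined in RGC and Müller glia nuclei for 1 library standing far from the other 3. Of 116 groups, 11 had one, where chance gives about 5%. In RGC nuclei, Mvk was 10.0 CPM in cKO library 13 against 11.8 to 12.2 CPM in the others, and Idi1 was 38.8 CPM in cKO library 11 against 32.2 to 33.2 CPM. Sqle was 32.8 CPM in control library 3 against 37.5 to 38.3 CPM, and Scd2 was 171 CPM in control library 1 against 138 to 143 CPM.

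In Müller glia nuclei, which gave fewer UMIs, Pmvk was 35.6 CPM in control library 4 against 12.1 to 15.3 CPM, and Dhcr7 was 6.47 CPM there against 10.4 to 10.6 CPM. Fads1 was 72.1 CPM in control library 1 against 53.8 to 55.0 CPM. In cKO library 11, Tm7sf2 was 21.8 CPM against 9.93 to 11.9 CPM and Stard4 was 24.9 CPM against 8.09 to 9.25 CPM. Ebp was 18.4 CPM in cKO library 12 against 6.07 to 7.93 CPM, and Srebf1 was 18.2 CPM in cKO library 13 against 37.4 to 39.7 CPM.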

How the results depend on the processing

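In the genotype comparison no member was called under any edgeR setting, and DESeq2 called 1, Hsd17b7 in RGC nuclei. In RGC nuclei 26 to 29 of 29 members were positive in every alternative. Thinning gave Sc5d 0.05 in place of 0.16, Stard4 0.11 in place of 0.28 and Mvk 0.19 in place of 0.38 there. It gave Tm7sf2 0.28 in place of 0.12 and Mvd 0.78 in place of 0.51. Tm7sf2 was 0.05 without cKO library 11, Elovl6 0.06 without cKO library 12 and Srebf2 0.007 without control library 2. No paired analysis was possible because the replicate numbers of the groups do not overlap. Subtraction of free RNA in the genotype comparison and the comparison of empty droplets were added after the data had been seen. Rod nuclei had the fewest UMIs of the tested classes, 2587516 in all, and Müller glia the next, 4677431. In Müller glia the median genotype difference, 0.33, was 0.21 when thinned and 0.22 with the marker minimum doubled. In bipolar nuclei that median, 0.04, was 0.14 over 12 members with the minimum doubled and 0.021 with no filter on low counts, and in rod nuclei 0.26 became 0.15 over 2 members with the empty-droplet profile subtracted.

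Members called in amacrine against RGC nuclei went from 3 to 1 with the marker minimum doubled, to 1 with no filter on low counts and to 0 when thinned to 2000 UMIs, and to 2 to 3 with 1 library left out. In rod nuclei 21 became 8 for nuclei called by order of magnitude only and 11 when thinned, both from fewer libraries, and 15 to 21 with 1 library left out. With 1 library left out, 20 to 23 members were called in bipolar, 14 to 16 in Müller glia and 22 to 23 in the comparison with empty droplets. Under every alternative run, 19 of 22 calls held in bipolar nuclei, 11 of 15 in Müller glia and 21 of 23 against empty droplets. With the empty-droplet profile subtracted the median in Müller glia went from -0.45 to -0.73. The cause was not tested.

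The direction of some members turned, mostly of values within 0.2 of 0 but also of Hsd17b7 in amacrine (0.41) and of Mvd (-0.76) and Pmvk (-0.34) in rod nuclei. Against RGC nuclei in amacrine nuclei, control libraries only gave Hmgcs1 -0.049 and Fads2 -0.097. The doubled minimum gave Mvk -0.083, no filter gave Mvk -0.029 and Fads2 -0.022, and thinning gave Hsd17b7 -0.14, Fads2 -0.13 and Insig1 0.023. In bipolar nuclei Ebp was 0.043 for nuclei called by order of magnitude only and 0.027 with the doubled minimum, and Srebf1 was 0.0062 at 1000 UMIs, 0.10 with no doublet removal and 0.048 with the doubled minimum. In rod nuclei the order-of-magnitude step gave Acly -0.65, Pmvk 0.26 and Fdps -0.26. Fdps was -0.99 when thinned and -0.70 with the empty-droplet profile subtracted, Mvd 0.058 in control libraries, and Ebp -0.012 with no filter, -0.021 when thinned, -0.0088 with no library block and -0.74 with the profile subtracted. In Müller glia Hsd17b7 was 0.26 in control libraries, Ebp -0.19 with the profile subtracted, and Fasn 0.0018 with the order-of-magnitude step and 0.095 at 1000 UMIs. Srebf2 there was -0.0055 with no doublet removal, -0.038 with the doubled minimum, -0.021 with DESeq2, -0.15 with no filter, -0.037 when thinned and -0.082 in control libraries. Against empty droplets Acat2 was 0.0058 with DESeq2 and 0.12 with no filter.

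With 1 library left out, the ranges of members whose direction turned were -0.044 to 0.092 for Mvk, -0.021 to 0.008 for Fads1 and -0.039 to 0.0035 for Insig1 in amacrine nuclei, and -0.31 to 0.043 for Ebp and -0.24 to 0.15 for Srebf1 in bipolar nuclei. They were -0.19 to 0.32 for Ebp in rod nuclei, -0.23 to 0.11 for Hsd17b7, -0.15 to 0.012 for Fasn and -0.061 to 0.044 for Srebf2 in Müller glia, and -0.091 to 0.023 for Acat2 against empty droplets.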
